A study of Mus musculus with 16 samples.

Results

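The adhesion integrins of keratinocytes were followed as 8 genes, Itga2, Itga3, Itga5, Itga6, Itga9, Itgb1, Itgb4 and Itgb5, chosen by symbol among the 50600 genes of the count table. All 8 were found, and all 8 passed the minimum of 10 counts in total that left 22155 genes for testing. RNA was sequenced from footpad epidermal cells of 16 female C57/B6J mice, with 1 library for each mouse and 4 mice in each of 4 groups. From 5 wk of age the mice ate for 3 wk a purified diet poor in ligands of the aryl hydrocarbon receptor (AhR-poor diet, labelled SYNTH), or that diet supplemented with indole-3-carbinol at 200 ppm, a precursor of such ligands (I3C diet). On each diet, the footpad was injected with PBS (vehicle, 50 μl) or papain (50 μg), a protease allergen, and the cells were collected 6 hr later, so the groups were I3C diet with vehicle, I3C diet with papain, AhR-poor diet with vehicle and AhR-poor diet with papain. Cages held mice of a single diet, and an effect of the cage cannot be told apart from that of the diet. The cells had been parted from the dermis with dispase II and put through a step to remove dead cells. By the paper's flow cytometry some cells were not viable after this step, and most were keratinocytes, taken as cells without the leukocyte marker CD45. These steps do not leave keratinocytes alone.

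Integrins are receptors made of an α and a β chain, which span the plasma membrane and tie the matrix outside the cell to the cytoskeleton within. In the basal layer of the epidermis, α6β4 (Itga6 and Itgb4) is the core of the hemidesmosome, which anchors keratin filaments to laminin, and α3β1 (Itga3 and Itgb1) binds the same laminin at focal adhesions. The other chains serve other ligands. The collagen receptor is α2β1, the fibronectin receptor α5β1, and the receptor of tenascin and related ligands α9β1, while αvβ5 binds vitronectin. Resting epidermis is known to hold little α5β1, which keratinocytes display when they migrate over a wound.

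Expression is given as CPM, the counts of a gene scaled to the total of its library with TMM factors. Differences are log2 fold changes with their standard error (SE) from the quasi-likelihood F test of edgeR, with p-values adjusted by the Benjamini-Hochberg method over all genes tested. A gene is said to rise or fall where this adjusted p was below 0.01, whatever the size of the change. The thresholds of the study, the same adjusted p with more than a 2-fold change, are given beside it. Library totals ranged from 22500821 to 51844375 counts, and the 8 genes together took between 0.158% and 0.270% of them. The basal keratinocyte markers (Krt5, Krt14, Krt15, Trp63, Cdh3 and Sox6) were present in all 16 libraries at summed levels of 17360 to 30152 CPM, so the labelled tissue was there. Replicates of a group were not copies of each other, since their counts differed by at least 10.2 times the chi-square that sampling noise gives per degree of freedom.

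Per kilobase of exon, Itgb4 had the highest level of the family, at 107.3 CPM per kb ± 22.4 (SD, n = 16). Itgb1 at 61.5 ± 18.2 and Itga6 at 59.2 ± 11.4 CPM per kb came next and did not differ beyond their spread over the 16 libraries. Itga3 followed at 43.2 ± 11.2 and Itgb5 at 36.3 ± 9.80 CPM per kb, again within that pooled spread. Below these 5 genes there was a gap. Itga5 stood at 6.47 ± 4.62, Itga2 at 2.26 ± 0.863 and Itga9 at 0.127 ± 0.142 CPM per kb. The order of the middle genes was not the same in every group. With vehicle the mean level per kilobase of Itgb5 was above that of Itga3 on the I3C diet (44.6 against 38.0 CPM per kb) and on the AhR-poor diet (45.0 against 32.1 CPM per kb), and on the latter it was also level with that of Itgb1 (44.4 CPM per kb). With papain Itga3 was above Itgb5 without overlap on the I3C (55.7 against 29.6 CPM per kb) and the AhR-poor diet (47.1 against 25.9 CPM per kb). On the AhR-poor diet Itgb1 was below Itga6 with vehicle (44.4 against 50.8 CPM per kb). With papain it was above Itga6 there (71.0 against 52.0 CPM per kb), both without overlap. The α chains of the fibronectin, collagen and tenascin receptors were the 3 lowest in all 4 groups. The length used is the union of all annotated exons, and with the longest transcript in its place Itga6 came first, at 124 CPM per kb, ahead of Itgb4 at 121 and Itgb1 at 65.8 CPM per kb, with the order of the other 5 unchanged. By that length the mean of Itga6 was above that of Itgb1 in all 4 groups. With papain on the AhR-poor diet it was 108.9 against 75.9 CPM per kb, so the change of order of these genes depends on the length used.

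In GRCm38, the build of the mm10 alignment, the genes lie on 7 chromosomes. Itga3 (ENSMUSG00000001507, chr11:95044474-95076801, minus strand) and Itgb4 (ENSMUSG00000020758, chr11:115974709-116008412, plus strand) share a chromosome without being neighbours. The others are Itga2 (ENSMUSG00000015533, chr13:114833081-114932100, minus), Itga5 (ENSMUSG00000000555, chr15:103344286-103366763, minus), Itga6 (ENSMUSG00000027111, chr2:71745616-71858416, plus), Itga9 (ENSMUSG00000039115, chr9:118606690-118901003, plus), Itgb1 (ENSMUSG00000025809, chr8:128685654-128733200, plus) and Itgb5 (ENSMUSG00000022817, chr16:33829665-33949338, plus). Itgb4 shares 537 exonic bases with B230344G16Rik on the opposite strand, and how the counting treated strand is not given in the sources used here, so reads from that stretch may belong to either gene. The other 7 share no exonic base with another gene.

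RefSeq promoter windows (GRCm38.p6, 250 bases before to 50 after the start) were found for 6 of the 8 genes and not for Itga6 and Itgb4. They were searched on both strands for GCGTG, the core of the site that AhR binds, for TGANTCA, the site of AP-1, and for GGGCGG, the GC box. GCGTG occurred in the windows of Itga2, Itga9 and Itgb5, where 32.4% of all 32851 windows of this length hold it, and GGGCGG in those of all but Itga9, where 35.7% of windows hold it. TGANTCA lay in the windows of Itga9 and of 1 of the 2 starts of Itga3, against 7.81% of all windows. The window of Itga9 and this window of Itga3 belong to internal starts. The other window of Itga3, near the first base of the gene, held no TGANTCA. The 250 bases before the start are shown for the genes that moved in opposite directions after papain, with GCGTG and GGGCGG in capitals on either strand.
Itga5 (chr15:103366792-103367041, minus strand): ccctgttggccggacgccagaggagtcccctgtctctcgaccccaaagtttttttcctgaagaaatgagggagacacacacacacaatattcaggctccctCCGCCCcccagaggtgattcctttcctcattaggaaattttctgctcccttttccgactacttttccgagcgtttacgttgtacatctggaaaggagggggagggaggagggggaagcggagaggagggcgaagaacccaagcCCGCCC
Itgb5 (chr16:33829415-33829664, plus strand): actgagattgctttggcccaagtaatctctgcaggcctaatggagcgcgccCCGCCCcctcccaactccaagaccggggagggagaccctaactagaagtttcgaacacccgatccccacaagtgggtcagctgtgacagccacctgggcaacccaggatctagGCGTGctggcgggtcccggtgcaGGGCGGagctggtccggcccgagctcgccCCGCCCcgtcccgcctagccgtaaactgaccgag
In Itga5 no GCGTG was present, and the GC boxes began 149 and 6 bases before the start. In Itgb5 a GCGTG began 86 bases before the start and GC boxes began 199, 63 and 34 bases before it. These matches are letters in a window, and no binding was measured.

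Papain raised Itga5, the fibronectin receptor chain, on both diets, and lowered Itgb5, the vitronectin receptor chain, on both. It also raised Itga3 and Itgb1, the chains of α3β1, by about the same proportion on the 2 diets. The hemidesmosome chains Itga6 and Itgb4, and Itga2 and Itga9, did not pass the test after papain on either diet. Of the 8 genes, 4 passed on the AhR-poor diet (3 up and 1 down), where 22.5% of all genes tested did (12.4% up and 10.1% down), and the same 4 passed on the I3C diet in the same directions, against 25.7% (12.7% up and 12.9% down). Among the 7456 genes with at least 20 CPM on average, which include 6 of the 8, the shares were 35.1% and 43.3%. Only Itga5 also changed more than 2-fold, as 8.46% and 8.98% of genes did on the AhR-poor and the I3C diet.

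**Figure D1:**
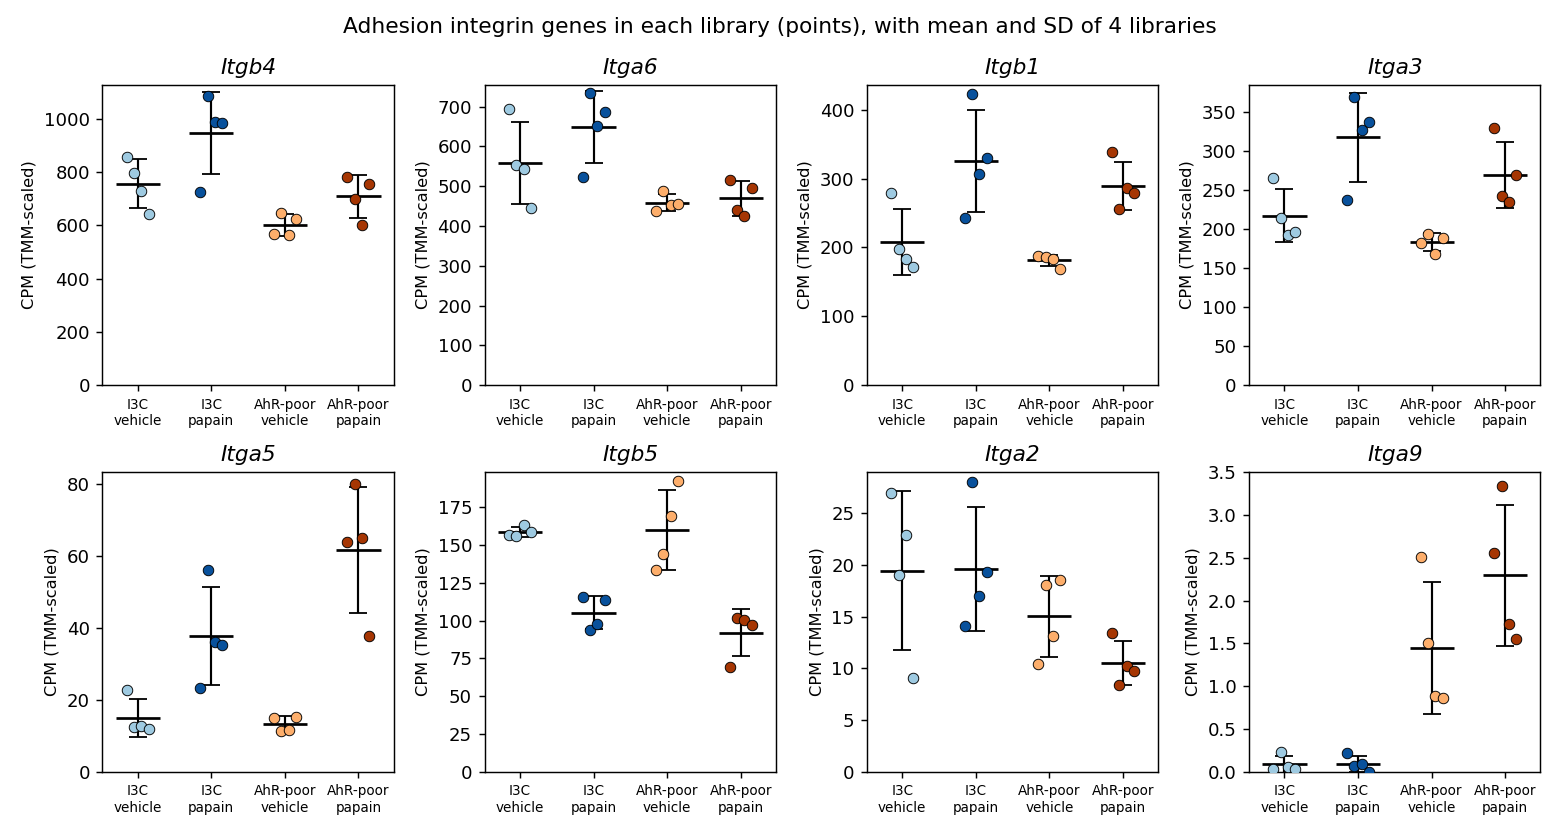
Expression of the 8 adhesion integrin genes in the 4 groups, in CPM after TMM scaling on linear axes from 0. Each point is a library, the horizontal line the mean and the bar the SD of 4 libraries. Itga5 sat between 11.2 and 22.7 CPM with vehicle and between 23.3 and 80.0 CPM with papain, Itgb5 fell with papain on both diets, and Itga9 was near 0 on the I3C diet.

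Itga5 showed the largest papain response of the family. Among vehicle libraries, those of the AhR-poor diet held 15.1, 11.2, 11.6 and 15.3 CPM and those of the I3C diet 22.7, 12.5, 12.8 and 11.8 CPM. Among papain libraries, those of the AhR-poor diet held 63.8, 80.0, 65.0 and 37.9 CPM and those of the I3C diet 23.3, 56.1, 36.2 and 35.4 CPM. Every papain library was above every vehicle library of its diet, a pattern shown by 33% of genes on the AhR-poor diet and 33.4% on the I3C diet in either direction. For the AhR-poor diet the mean went from 13.3 CPM ± 2.21 to 61.7 CPM ± 17.5 (SD, n = 4), a rise of 2.21 on the log2 scale (SE 0.30, adjusted p = 5.42e-05). With I3C it went from 14.9 CPM ± 5.18 to 37.7 CPM ± 13.6, a rise of 1.33 (SE 0.29, adjusted p = 0.00230). The order of the groups was thus AhR-poor with papain, I3C with papain, then both vehicle groups, which did not differ beyond their spread. The papain groups also overlapped, with a log2 difference between diets of 0.71 (SE 0.28, adjusted p = 0.0940).

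The papain responses of Itga5 on the 2 diets differed by 0.88 on the log2 scale (SE 0.41). This had an unadjusted p of 0.0484 and an adjusted p of 0.367, so a difference between the diets was not shown. It was the 1 gene of the 8 with an unadjusted p under 0.05 in the interaction of diet and papain, in which 0.0181% of all genes and none of the 8 passed the test in edgeR, or in DESeq2. Neutrophil markers moved with papain within each diet, while none of the 6 passed in the interaction in edgeR or had an unadjusted p under 0.05 there. All 6 of them (Csf3r, Cxcr2, Retnlg, Ly6g, Mmp9 and Clec4e) rose with papain on the AhR-poor diet. Their summed level there went from between 8.34 and 9.30 CPM to between 71.1 and 394 CPM. On the I3C diet 2 of 6 rose, and the summed level of all 6 went from between 1.29 and 3.84 to between 32.0 and 39.2 CPM. Cxcr2 and Mmp9 made up most of that level with papain, with means of 24.2 and 10.1 CPM. Csf3r, Retnlg, Ly6g and Clec4e had means of 0.739, 0.0891, 0 and 1.41 CPM in the same group. These 4 were at or under 3 counts in every library of the I3C diet with vehicle. Ly6g was so too in every library of the I3C diet with papain and of the AhR-poor diet with vehicle. Across the 16 libraries Itga5 followed the mean of the 6 neutrophil markers with a Pearson r of 0.79, which describes libraries that share the papain contrast. With that mean as a covariate the papain difference of Itga5 was 1.56 (adjusted p = 0.462) on the AhR-poor diet and 1.0 (adjusted p = 0.199) on the I3C diet. With it, 171 genes of 22155 passed on the AhR-poor diet, against 4977 without it.

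Itgb5 moved the other way. In mice on the AhR-poor diet its libraries held 134, 144, 169 and 192 CPM with vehicle, and 69.0, 101.7, 100.7 and 96.8 CPM with papain. In mice on the I3C diet the vehicle libraries lay close together at 156, 156, 163 and 159 CPM, and the papain libraries at 115.4, 94.1, 97.7 and 113.9 CPM. No papain library reached a vehicle library on either diet. The log2 fall of Itgb5 was −0.80 for the AhR-poor diet (SE 0.12, adjusted p = 5.15e-05) and −0.59 for the I3C diet (SE 0.12, adjusted p = 7.12e-04). The fall held without each library in turn. The vehicle groups of the 2 diets had nearly the same mean, 160 CPM ± 26.2 and 159 CPM ± 3.33 (SD, n = 4), and the papain groups, 92.0 CPM ± 15.5 and 105.3 CPM ± 10.9, overlapped.

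The partner of Itgb5, Itgav, went up as Itgb5 went down. Itgav rose from 59.7 to 86.2 CPM on the I3C diet (log2 fold change 0.53, SE 0.08, adjusted p = 3.97e-05). The AhR-poor diet gave means of 55.6 and 67.3 CPM (0.28, SE 0.08, adjusted p = 0.0128), which missed the threshold although the groups did not overlap. Per kilobase of exon, the log2 ratio of Itgb5 to Itgav within a library was 3.01 ± 0.13 (SD, n = 4) with vehicle and 1.89 ± 0.31 with papain on the I3C diet, and 3.11 ± 0.23 and 2.03 ± 0.31 on the AhR-poor diet. The RNA level of Itgb5 per kilobase thus remained above that of Itgav in every library. The gap was smaller after papain, with no overlap between vehicle and papain on either diet. No protein was measured. Itgb6, which also pairs with αv and is known from wounded epithelium, rose with papain on the I3C diet from 8.83 to 19.9 CPM (log2 fold change 1.17, SE 0.31, adjusted p = 0.00848), where the groups overlapped. It stood at 7.27 and 14.2 CPM on the AhR-poor diet (0.96, SE 0.32, adjusted p = 0.0291), where it did not pass although the groups did not overlap.

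The 2 chains of α3β1 rose together. Itgb1 held 187, 185, 183 and 169 CPM with vehicle and 339, 255, 286 and 279 CPM with papain in mice fed the AhR-poor diet. Itga3 held 182, 194, 168 and 189 CPM and 329, 243, 235 and 269 CPM in the same libraries. The vehicle libraries were tightly grouped, and every papain library was above them for both genes. Itgb1 rose there by 0.68 (SE 0.16, adjusted p = 0.00293) and Itga3 by 0.56 (SE 0.13, adjusted p = 0.00334).

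With I3C in the diet, Itgb1 held 278, 197, 183 and 172 CPM with vehicle and 243, 423, 306 and 329 CPM with papain. Itga3 held 266, 214, 192 and 196 CPM with vehicle and 237, 370.0, 327 and 337 CPM with papain. Here the groups overlapped for both genes, because the highest vehicle library (T108) lay above the lowest papain library (T106). Itgb1 rose by 0.65 (SE 0.16, adjusted p = 0.00353) and Itga3 by 0.55 (SE 0.13, adjusted p = 0.00324). In a fit of the 8 I3C libraries alone Itgb1 missed the threshold (0.67, adjusted p = 0.0147). It also missed it without T109, T110, T111 or T113 (adjusted p up to 0.0146) and Itga3 without T110, T111 or T113 (up to 0.0124). In the AhR-poor groups both missed it without T104 (Itgb1 0.0134 and Itga3 0.0150).

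Within a library, the log2 ratio of Itga3 to Itgb1 per kilobase was −0.40 ± 0.11 and −0.51 ± 0.12 on the I3C diet with vehicle and papain, and −0.47 ± 0.13 and −0.60 ± 0.12 on the AhR-poor diet (SD, n = 4). These values overlapped between vehicle and papain, so the RNAs of the chains of α3β1 kept nearly the same proportion while both went up. By contrast, the log2 ratio of Itga5 to Itgb1 went from −4.10 ± 0.15 to −3.42 ± 0.20 on the I3C diet and from −4.05 ± 0.28 to −2.55 ± 0.50 on the AhR-poor diet, without overlap. The ratio of Itga2 to Itgb1 went down, from −4.43 ± 0.44 to −5.61 ± 0.11 on the AhR-poor diet without overlap, and from −4.30 ± 0.53 to −4.88 ± 0.11 on the I3C diet with overlap. No test was made on the ratios.

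**Figure D2:**
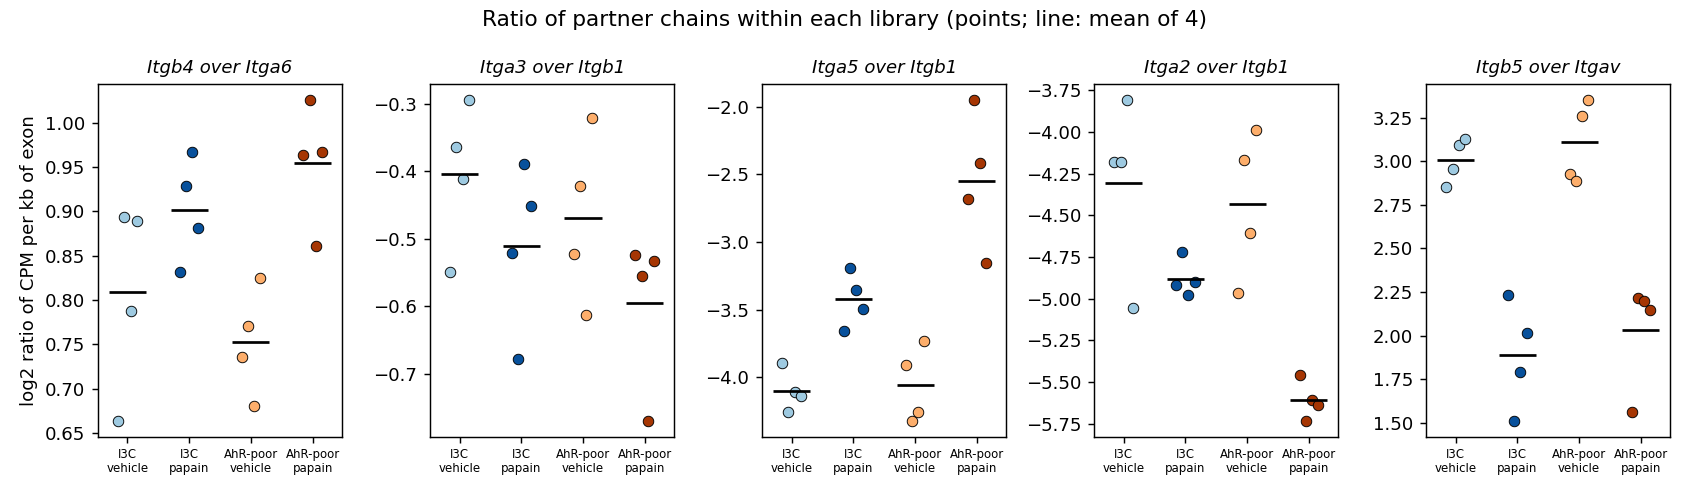
Log2 ratio of the partner chains of 5 integrin pairs in each library, from CPM per kb of exon; each point is a library, the line the mean of 4, and the vertical axes differ and do not start at 0. Itga5 over Itgb1 went up with papain and Itgb5 over Itgav went down on both diets, without overlap, while Itga3 over Itgb1 stayed between −0.77 and −0.29 in all 16 libraries.

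The hemidesmosome chains had the smallest papain differences of the abundant members. Itgb4 had means of 601 CPM ± 42.3 and 709 CPM ± 80.3 (SD, n = 4) with vehicle and papain under the AhR-poor diet (log2 fold change 0.24, SE 0.12, adjusted p = 0.129). The I3C groups had 756 CPM ± 92.7 and 946 CPM ± 154 (0.32, SE 0.12, adjusted p = 0.0363). Itga6 had 458 CPM ± 21.8 and 470 CPM ± 43.2 on the AhR-poor diet, which differed by 0.03 (SE 0.12, adjusted p = 0.858), and 559 CPM ± 103.03 and 649 CPM ± 89.8 on the I3C diet, by 0.22 (SE 0.12, adjusted p = 0.169). All 4 pairs of groups overlapped. The log2 ratio of Itgb4 to Itga6 per kilobase lay between 0.66 and 1.03 in all 16 libraries. On the AhR-poor diet it was 0.75 ± 0.06 with vehicle and 0.95 ± 0.07 with papain (SD, n = 4), without overlap. For the I3C diet it was 0.81 ± 0.11 and 0.90 ± 0.06, with overlap. With the longest transcript as length the group means lay between −0.14 and 0.064, so which chain was higher depends on the length used.

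Other genes of the hemidesmosome and its basement membrane did change. Of 9 listed genes, 1 rose and 4 fell after papain on each diet, with medians of −0.28 on the AhR-poor and −0.11 on the I3C diet, where the medians of all genes were −0.00 and −0.04. Dst, whose epidermal form links α6β4 to keratin, had means of 916 and 376 CPM with vehicle and papain under the AhR-poor diet and of 1168 and 455 CPM under the I3C diet, log2 changes of −1.28 (SE 0.12) and −1.36 (SE 0.12). Col7a1, the collagen of the anchoring fibrils, fell as well (−0.90, SE 0.09, and −0.96, SE 0.09), and so did Lamb3, a chain of the epidermal laminin that α6β4 and α3β1 bind (−0.59, SE 0.13, and −0.76, SE 0.13).

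Of 24 genes of integrin activation and focal adhesion, 4 rose and 3 fell on the AhR-poor diet and 5 rose and 3 fell on the I3C diet, with medians of 0.02 on each. Tns1, a tensin that joins β chains to actin, changed by −1.24 (SE 0.19) on the AhR-poor and by −2.07 (SE 0.19) on the I3C diet. Actn1, an actin cross-linker, rose by 0.89 (SE 0.17) on the AhR-poor and by 1.02 (SE 0.17) on the I3C diet. With the I3C diet Vcl, which reinforces adhesions under tension, rose by 1.24 (SE 0.18), while the tensin Tns2 fell (−1.12, SE 0.14). Neither passed on the AhR-poor diet, where their differences were 0.63 (SE 0.18) and −0.40 (SE 0.13). With the AhR-poor diet Parvb rose from 0.964 to 3.24 CPM and Fermt2, an integrin activator, from 5.83 to 11.4 CPM. On the I3C diet, where neither passed, Parvb had means of 0.167 and 0.0688 CPM and Fermt2 of 3.22 and 3.47 CPM. None of Tns1, Actn1, Vcl, Tns2, Parvb and Fermt2 passed in the interaction of diet and papain in edgeR, where all but Actn1 had an unadjusted p under 0.05. Talin 1 (Tln1), which the cell needs to activate β chains, had means of 193 and 186 CPM on the AhR-poor and 217 and 209 CPM on the I3C diet and passed in neither. Between the diets none of the 24 passed in edgeR with vehicle, where 5 had an unadjusted p under 0.05. With papain 3 were higher and 2 lower under the AhR-poor diet, among them Parvb (3.24 against 0.0688 CPM), Fermt2 (log2 difference 1.71, SE 0.25) and Tns2 (0.73, SE 0.14).

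The basal keratinocyte list moved in the same comparisons. Its summed level was 18575 to 25439 CPM with vehicle and 17360 to 21524 CPM with papain under the AhR-poor diet, and 24333 to 30152 CPM against 18873 to 20650 CPM on the I3C diet. Under the AhR-poor diet 1 of its 6 genes rose and 2 fell, and under the I3C diet 1 rose and 3 fell, while none of 7 suprabasal markers passed in edgeR on either (3 and 2 had an unadjusted p under 0.05). In a bulk sample, fewer cells of a type and less RNA in each cell cannot be told apart. With the mean of the basal markers as a covariate, the 4 genes kept their directions on both diets, and Itga5 on the I3C diet had a difference of 1.93 with an adjusted p of 0.0316. The part of the basal markers in these results was not tested further.

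**Figure D3:**
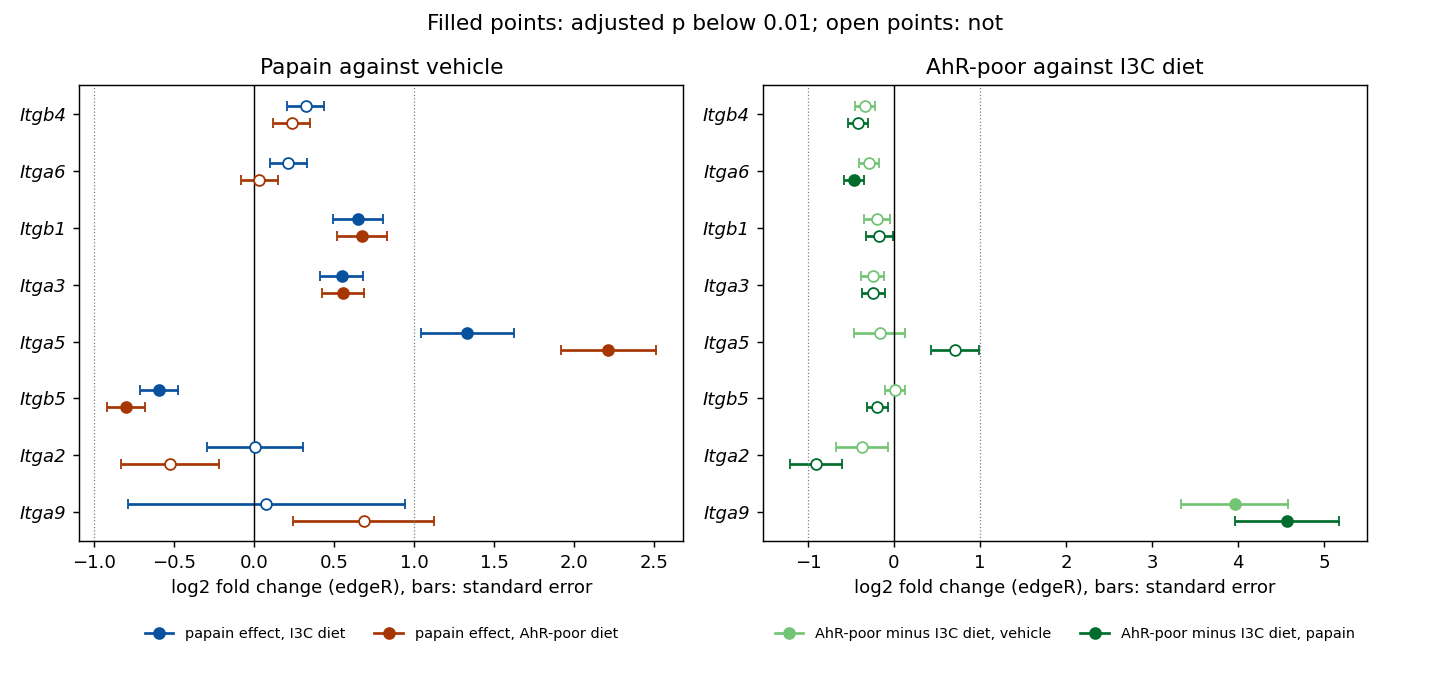
Log2 fold changes of the 8 genes from edgeR with bars for the standard error, for papain against vehicle on each diet (left) and for the 2 diets with each treatment, as AhR-poor minus I3C (right); filled points have an adjusted p below 0.01 and dotted lines mark a 2-fold change. Itga5, Itgb1, Itga3 and Itgb5 are filled on both diets on the left, and on the right Itga9 stands at 3.96 and 4.57 while the filled point of Itga6 lies at −0.47.

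The comparison of diets asked whether adhesion genes depend on dietary AhR ligands. Itga9 was higher on the AhR-poor diet with both treatments, at levels far below those of the other members. Itga6 was lower on the AhR-poor diet with papain. None of the other 6 passed in either comparison. With vehicle, 1 of the 8 genes passed, against 1.72% of all genes, and it also passed the 2-fold threshold, as did 1.59%. With papain, 2 of the 8 passed, 1 higher and 1 lower, against 11.2% of all genes (8.13% higher and 3.07% lower), and 1 with more than 2-fold, against 7.24%.

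Itga9 had 1, 9, 2 and 1 counts in the vehicle libraries of the I3C diet (0.0287, 0.229, 0.0544 and 0.0300 CPM), and 92, 57, 36 and 32 counts in those of the AhR-poor diet (2.51, 1.51, 0.890 and 0.858 CPM). With papain it had 9, 2, 3 and 0 counts on the I3C diet (0.219, 0.0641, 0.0856 and 0 CPM) and 40 to 176 counts in the AhR-poor libraries (2.56, 3.34, 1.73 and 1.55 CPM). The count of 0 in library T115 allows up to 0.0746 CPM, by counting error alone. The diets did not overlap with either treatment, as for 8.12% of genes with vehicle and 24.9% with papain. The log2 difference was 3.96 with vehicle (SE 0.62, adjusted p = 0.00108) and 4.57 with papain (SE 0.60, adjusted p = 3.93e-05). The ratio of the mean CPM was 16.8 with vehicle, and 38.2 without T109, the I3C library with the most counts there. With papain it was 24.9, and 46.0 without T106. Papain did not change Itga9 detectably on either diet, with differences of 0.69 (SE 0.44, adjusted p = 0.258) on the AhR-poor and 0.08 (SE 0.87, adjusted p = 0.972) on the I3C diet.

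Integrin α9 is known on basal keratinocytes, and also on lymphatic endothelium and smooth muscle. Markers of other cells moved with Itga9. All 8 endothelial markers (Pecam1, Cdh5, Kdr, Tek, Emcn, Tie1, Egfl7 and Cldn5) were higher under the AhR-poor diet with each treatment, and none was at or under 3 counts in every library of a group. Their summed level ranged from 0.632 to 2.93 CPM with vehicle and 0.742 to 2.34 CPM with papain on the I3C diet, against 14.2 to 43.7 and 26.1 to 65.1 CPM on the AhR-poor diet. Of 12 dermal fibroblast markers, 10 with vehicle and 11 with papain were higher. The summed level of all 12 was 244 to 319 and 129 to 173 CPM on the I3C diet, against 311 to 418 and 467 to 930 CPM on the AhR-poor diet. Sparc and Col6a1 made up most of that level with vehicle, and neither passed there. Sparc had means of 148 CPM on the AhR-poor and 196 CPM on the I3C diet (log2 difference −0.41, SE 0.10, adjusted p = 0.0284 in edgeR). Col6a1 had 66.9 and 73.6 CPM. Mfap5 was at or under 3 counts in every I3C library. Of 7 monocyte and macrophage markers, 4 and 7 were higher under the AhR-poor diet with vehicle and papain, and of 6 pericyte and smooth muscle markers 1 and 3. With papain Notch3 of that list was lower (log2 difference −0.71, SE 0.17, adjusted p = 0.00696), with means of 155 against 254 CPM. It made up most of the summed level of the list, 145 to 203 CPM on the AhR-poor against 250.3 to 305 CPM on the I3C diet. The 3 higher there were Pdgfrb (4.22 against 0.0540 CPM), Tagln (2.94 against 0.439 CPM) and Rgs5 (0.203 against 0.00609 CPM). Pdgfrb and Rgs5 were at or under 3 counts in every library of the I3C diet with papain. The Langerhans cell, T cell, Schwann cell and eccrine gland lists had no marker that passed in edgeR with vehicle (5, 0, 1 and 0 had an unadjusted p under 0.05), and 1 of 6, 1 of 4, 2 of 5 and 0 of 5 that were higher with papain. Mbp, of the Schwann cell list, was lower with papain (−0.42, SE 0.10, adjusted p = 0.00461), with means of 60.3 against 80.6 CPM. It made up most of the summed level of that list, 63.3 to 66.7 CPM on the AhR-poor against 72.6 to 94.9 CPM on the I3C diet. The 2 higher were Sox10 (0.248 against 0.0132 CPM) and Cnp (2.75 against 1.24 CPM). Sox10 was at or under 3 counts in every I3C library. Over the 16 libraries, Itga9 followed the endothelial marker mean with a Pearson r of 0.98 and the fibroblast mean with an r of 0.95, and the basal keratinocyte mean with an r of −0.16. These are descriptions of libraries that split by diet.

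With the endothelial mean as a covariate, the diet difference of Itga9 was 0.42 with vehicle and −0.17 with papain, and with the fibroblast mean 0.57 and −1.26, none of which passed. With either covariate 0 of 22155 genes passed in edgeR in the diet comparisons, so these fits leave no call for any gene. Whether the RNA of Itga9 came from keratinocytes or from other cells was not tested.

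**Figure D4:**
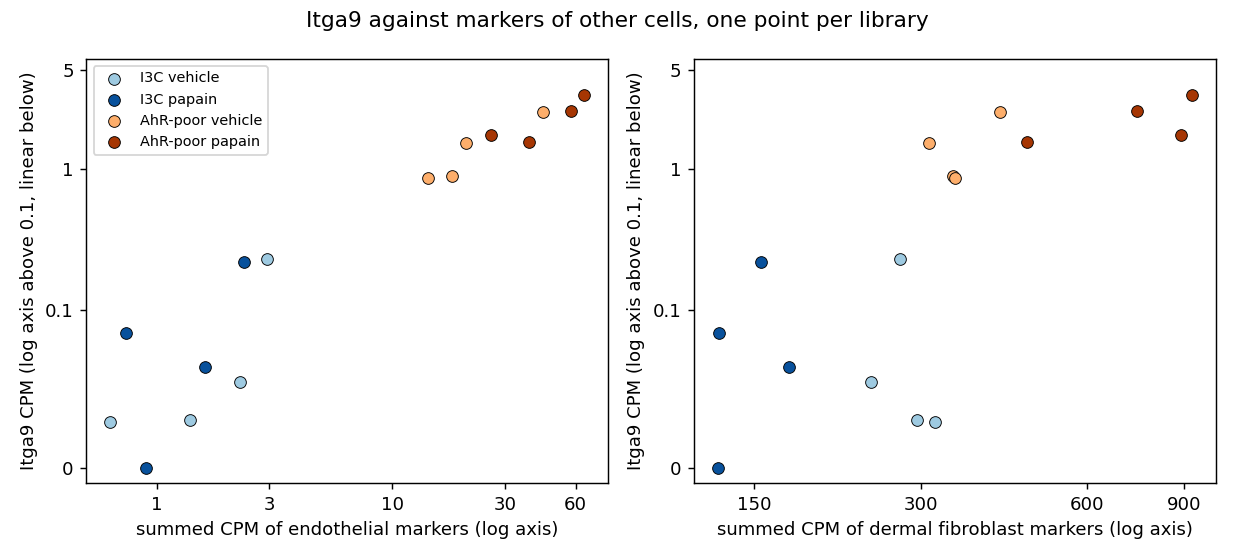
Expression of Itga9 in each of the 16 libraries against the summed expression of 8 endothelial (left) and 12 dermal fibroblast markers (right), in CPM; the horizontal axes are logarithmic and the vertical axis is logarithmic above 0.1 and linear below. The 8 libraries of the AhR-poor diet hold 0.858 to 3.34 CPM of Itga9 and at least 14.2 CPM of endothelial markers, and the 8 of the I3C diet at most 0.229 and 2.93 CPM.

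Itga6 had levels of 524, 734, 652 and 687 CPM on the I3C diet with papain and 515, 441, 425 and 496 CPM in the AhR-poor group with papain. The groups did not overlap, but the highest AhR-poor library (T104) was close to the lowest I3C library (T106). The log2 difference was −0.47 (SE 0.12, adjusted p = 0.00780), so Itga6 was lower by 27.7%, at 0.723-fold. It missed the threshold without any of T113, T114, T115, T105, T107 or T112 (adjusted p up to 0.0297) and with library size as the scaling (−0.36, adjusted p = 0.0275). With vehicle, Itga6 held 695, 552, 543 and 445 CPM on the I3C and 437, 489, 453 and 454 CPM on the AhR-poor diet. The I3C libraries were spread widely there, and the difference of −0.29 (SE 0.12) had an adjusted p of 0.282.

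The partner chain Itgb4 had the same direction. Its levels with papain were 725, 1085, 990.3 and 984 CPM on the I3C and 781, 699, 600 and 754 CPM on the AhR-poor diet, where library T106 of the I3C diet fell among the AhR-poor ones. The log2 difference of −0.42 (SE 0.12) had an adjusted p of 0.0152 in edgeR and of 0.00642 in the Wald test of DESeq2. Without each library in turn it lay between −0.52 and −0.33 in edgeR, with an adjusted p up to 0.0588. Only the fits without T106 (−0.52, adjusted p = 9.81e-04) or T111 passed. With vehicle the log2 difference of Itgb4 was −0.33 (SE 0.12, adjusted p = 0.175). Of the 9 genes of the hemidesmosome list, Lama3, the α chain of the laminin that holds Lamb3, was lower on the AhR-poor diet with papain (means of 171 and 272 CPM, log2 difference −0.67, SE 0.17, adjusted p = 0.00942), and none passed in edgeR with vehicle, where 2 had an unadjusted p under 0.05. The medians of the list were −0.24 with vehicle and −0.32 with papain, against −0.01 and 0.01 for all genes.

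Itga2, the α chain of the collagen receptor, had 14.1, 28.0, 17.0 and 19.3 CPM on the I3C diet with papain and 13.4, 8.40, 10.3 and 9.79 CPM in the AhR-poor group with papain. The groups did not overlap, as for 12.3% of genes with the AhR-poor diet lower. Its log2 difference of −0.90 (SE 0.30) was the lowest of the 8, but the adjusted p was 0.0493 in edgeR, and 0.00848 in DESeq2. With vehicle its libraries ranged from 9.03 to 26.9 CPM on the I3C and from 10.5 to 18.6 CPM on the AhR-poor diet (−0.37, SE 0.30, adjusted p = 0.705). After papain the differences of Itga2 were −0.52 (SE 0.30, adjusted p = 0.214) on the AhR-poor and 0.01 (SE 0.30, adjusted p = 1.0) on the I3C diet.

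The remaining diet differences were small. Itga3 differed by −0.25 (SE 0.13, adjusted p = 0.489) with vehicle and −0.24 (SE 0.13, adjusted p = 0.231) with papain, Itgb1 by −0.20 (SE 0.16, adjusted p = 0.696) and −0.17 (SE 0.16, adjusted p = 0.512). Itgb5 differed by 0.01 (SE 0.12, adjusted p = 0.997) with vehicle and −0.19 (SE 0.12, adjusted p = 0.291) with papain. The median over the 8 genes was −0.22 with each treatment, against −0.01 and 0.01 over all genes, and 6 of 8 with vehicle and 6 of 8 with papain had a negative difference. Each papain group entered both a papain and a diet comparison, so these values are not independent of those above. The interaction was between −0.53 (Itga2, SE 0.43, adjusted p = 0.628) and 0.88 (Itga5) for the 8 genes, with a median of −0.04 against 0.03 over all genes.

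The genes of matrix ligands differed between the diets. Of 15 genes for ligands of the collagen, fibronectin and tenascin binding integrins, 6 with vehicle and 9 with papain were higher under the AhR-poor diet and none was lower in edgeR (0 also at an unadjusted p under 0.05), with medians of 1.47 and 2.88. Col3a1, a fibrillar collagen, differed by 5.47 (SE 0.55) with vehicle and 6.64 (SE 0.54) with papain. Fn1, the fibronectin that α5β1 binds, had means of 2.96 and 30.7 CPM with vehicle (log2 difference 3.37, SE 0.58, adjusted p = 0.00457) and 5.29 and 116 CPM with papain (4.46, SE 0.58, adjusted p = 1.21e-04). Col1a1 differed by 4.09 (SE 0.41) and 6.13 (SE 0.44), and Col1a2 by 4.15 (SE 0.51) and 6.43 (SE 0.55). Papain raised 8 of the 15 on the AhR-poor diet, among them Spp1, an integrin ligand of inflamed tissue, from 0.543 to 25.7 CPM (5.56, SE 0.77) and Col1a1 by 1.87 (SE 0.34). Under the I3C diet none rose in edgeR (1 had an unadjusted p under 0.05 with a higher level) and Lamc1 fell (−0.51, SE 0.12). Col1a1, Col1a2 and Col3a1 are also on the dermal fibroblast list, whose levels are given with Itga9. Tnc, the tenascin that α9β1 binds, had means of 46.6 and 41.3 CPM with vehicle and 60.5 and 53.2 CPM with papain on the I3C and AhR-poor diets and passed in no comparison.

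Among the 19 other integrin subunits in the table, 1 was higher under the AhR-poor diet with vehicle, and 10 were higher and 1 lower with papain. The one with vehicle was Itga11, the fibroblast collagen receptor chain, at 0.331 against 0.0550 CPM, which is named after its values were seen. With papain, Itgb2, the β chain of the leukocyte integrins, had means of 30.1 CPM on the AhR-poor and 2.23 CPM on the I3C diet (log2 difference 3.75, SE 0.40, adjusted p = 1.62e-05). Itgb3 stood at 4.24 against 0.435 CPM, Itga4 at 3.82 against 0.869 and Itgal, the partner of Itgb2 on lymphocytes, at 12.8 against 2.94 CPM. The 1 lower was Itgav (−0.36, SE 0.08, adjusted p = 0.00389). Papain raised 7 of the 19 on the AhR-poor diet, with Itgb2 from 4.37 to 30.1 CPM and Itgam, its partner on neutrophils and macrophages, from 2.62 to 12.4 CPM. For the I3C diet papain raised 3, Itgb6, Itgav and Itga2b. The median of the list was 0.75 and 1.65 in the diet comparisons with vehicle and papain, and 0.90 and 0.49 after papain on the AhR-poor and the I3C diet. None of the 4 lists had a gene that passed the interaction in edgeR, where 1 of the hemidesmosome, 7 of the focal adhesion, 6 of the ligand and 8 of the other integrin genes had an unadjusted p under 0.05.

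Genes with the pattern closest to each member were sought among 13008 genes of at least 1 CPM by Pearson correlation of log2 CPM over the 16 libraries, which share the 4 groups. Itga6 and Itgb4 were most like Tbc1d8b (0.93) and Fbxl5 (0.94), and Lama3 was second for Itga6 (0.92). Slc16a3, Smox and Plod2 followed Itga5 (0.97, 0.97 and 0.96), and Zfp185, Dlx5 and Them5 followed Itgb5 (0.98, 0.97 and 0.97). Gm21092 and Col17a1, a hemidesmosome collagen, were closest to Itga2 (0.92 each). The closest to Itga9 were Pear1, Ntn1 and Tie1 (0.98 each), of which Tie1 is on the endothelial list. Within the family, r was 0.95 for Itga3 and Itgb1, 0.93 for Itga6 and Itgb4, and −0.87 for Itgb5 and Itga5.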

How the data were processed

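The authors aligned reads of TruSeq Stranded libraries with STAR to mm10 after FastQC, and deposited raw counts of reads for each gene and library, without normalization. The counting tool, its strand setting and the annotation are not given in the sources used here. Every value was checked to be whole, with a different sum in each library. Symbols and positions come from GENCODE M21 for GRCm38, in which 50376 of 50600 identifiers were matched and 224 were not; 21610 had no count.

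The 8 genes, the 4 pathway lists and the 11 lists of cell type markers were chosen with earlier results of these data known. Each library took its diet and treatment from its label. Cage and diet cannot be told apart, and the methods name 3 sequencing units without the unit of each library, so neither was a term. The filter on low counts kept genes that reached 10 over all libraries. The robust quasi-likelihood F test of edgeR 4.0.16 (R 4.3.3) was run with TMM factors on a model of 4 group means over 16 libraries, and the 4 comparisons and their interaction were contrasts of it. Library totals give the precision of a CPM, and limits from a count of 0 use 3 counts and cover counting error only. Gene lengths are unions of exons. From each list the text gives counts and the 4 genes called with the largest change at 1 CPM or more on average, and, as nearest patterns, up to 3 genes with the highest Pearson r on log2 CPM with a prior count of 2. Tln1, Tnc, Itga11, Fn1 with papain and Itgb6 on the AhR-poor diet were named after their values were seen. Some genes that this rule names are not reported here. Cell type markers were summed per library.

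The model was tested on simulated data before use. Each library was left out in turn. Other alternatives were scaling (RLE factors, or library size alone), filters (that of filterByExpr, 10 counts or more in all libraries, or 1 count in total), the DESeq2 1.42.0 Wald test, a fit of the 8 libraries compared alone, a limit of 0.05 on the adjusted p, the longest transcript as length, and the basal or fibroblast marker mean as covariate. The endothelial and neutrophil covariates were added after seeing the data.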

Additional observations from a re-analysis of the deposited data

Results flagged for a closer look

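In 3 of 32 groups of 4 libraries, 1 library stood apart from the other 3 by a gap that passed Dixon's critical value for 4 values, where chance gives about 1 in 20 groups. Itga5 was 22.7 CPM in library T108 of the I3C diet with vehicle, against 11.8 to 12.8 CPM in the others. Itga9 was 0.229 CPM in library T109 of the I3C diet with vehicle, against 0.0287 to 0.0544 CPM. Itgb5 was 69.0 CPM in library T104 of the AhR-poor diet with papain, against 96.8 to 101.65 CPM. The papain calls of Itga5 and Itgb5 and the diet call of Itga9 with vehicle were each made without these libraries too.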

How the results depend on the processing

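Over 1107 refitted differences of the 8 genes, 998 kept their direction and their side of the threshold. With the direction kept, 37 lost the call and 8 gained one. The other 64 changed sign, and calls lost along with the sign are among these. No paired analysis was possible because no replicate code occurs in more than 1 group. RLE factors and filterByExpr changed no call. A fit of only the 8 libraries compared lost 1, Itgb1 after papain on the I3C diet (0.67, adjusted p = 0.0147), and Itga6 between the diets with papain was lost with library size alone (−0.36, adjusted p = 0.0275) and with 10 counts in every library (−0.42, adjusted p = 0.0222). Library size alone moved the median of all genes by 0.10 between the diets with papain, left 1 of the 8 genes called there and put Itga2 at −0.029 after papain on the I3C diet. Keeping every gene with at least 1 count put the interaction of Itga3 at −0.0016. At least 10 counts in every library removes Itga9, and then 0 genes were called between the diets with either treatment, at either threshold. DESeq2 and an adjusted p below 0.05 each called 4 between the diets with papain.

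Covariates moved most. With the fibroblast mean 0 of the 8 genes were called between the diets with either treatment and after papain on the AhR-poor diet, and 2 after papain on the I3C diet at any fold. Differences that changed sign with it were, between the diets with vehicle, Itga3 0.21, Itga6 0.20, Itgb1 0.032 and Itgb4 0.15; with papain, Itga3 0.58, Itga5 −0.28, Itga6 0.40, Itga9 −1.26, Itgb1 0.24 and Itgb4 0.44; after papain, Itga9 −1.19 (AhR-poor) and Itga2 −0.061 (I3C); in the interaction, Itga6 0.20, Itga9 −1.83 and Itgb4 0.29. With the endothelial mean 0 were called between the diets, and the sign changed with vehicle for Itga2 (0.17), Itga3 (0.044), Itga5 (0.24) and Itgb1 (0.13), with papain for Itga3 (0.15), Itga9 (−0.17), Itgb1 (0.26) and Itgb5 (0.27), after papain for Itga9 on the AhR-poor (−0.26) and Itga2 on the I3C diet (−0.018), and for the interaction of Itga9 (−0.58). With the neutrophil mean 0 were called between the diets and after papain on the AhR-poor diet, and on the I3C diet 1 at any fold and 0 above 2-fold. The sign changed with it for Itga3 (0.015) and Itgb5 (−0.017) with vehicle, for Itga3 (0.31), Itga6 (0.077), Itgb1 (0.20) and Itgb4 (0.13) with papain, for Itga9 after papain (−1.35 on the AhR-poor and −1.04 on the I3C diet), and for the interactions of Itga6 (0.10), Itga9 (−0.32) and Itgb4 (0.20). The basal mean called 3 genes above 2-fold after papain on the AhR-poor diet (Itga5, Itgb1 and Itgb5), and put the interactions of Itga3 and Itgb1 at −0.079 and −0.099 and Itgb5 with vehicle at −0.072. The cause of these changes was not tested.

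Leaving out each library in turn called 1 to 3 of the 8 genes between the diets with papain, 2 to 4 after papain on the AhR-poor diet (2 without T104) and 2 to 5 on the I3C diet (2 without T110, T111 or T113). The differences that changed sign ranged over −0.22 to 0.20 for Itga2, −0.88 to 1.23 for Itga9 (both papain, I3C diet), −0.013 to 0.085 for Itga6 (papain, AhR-poor diet), −0.26 to 0.10 for Itga5 and −0.098 to 0.083 for Itgb5 (diets, vehicle), and in the interaction −0.11 to 0.11 for Itga3, −0.54 to 1.58 for Itga9, −0.14 to 0.20 for Itgb1 and −0.18 to 0.0038 for Itgb4. With 9 counts or fewer in every I3C library, depth limits Itga9 alone among the 8.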
